A study of Mus musculus with 3 samples.

Results

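Aldehyde dehydrogenases oxidize aldehydes to carboxylic acids with NAD or NADP as electron acceptor. The best known link between this family and vitamin A is the oxidation of retinal to retinoic acid by the Aldh1a enzymes, which are not described here except in counts. The genes examined were the 10 family members that serve other pathways, namely Aldh2, Aldh1b1, Aldh1l1, Aldh3a2, Aldh4a1, Aldh5a1, Aldh6a1, Aldh7a1, Aldh8a1 and Aldh9a1. They were chosen by name and function, not by a measured value, but with earlier results of these data known. They are 10 of the 22367 protein-coding genes of the annotation.

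The liver chromatin was that of male C57BL/6 mice of wild type genotype, labelled as 3 months old, and the labels name no treatment. There were 3 libraries, 1 each for RXRα, for RARα and for input chromatin that was not precipitated. Because each antibody has a single library, no difference has a replicate check and no p-value was computed. The RXRα and input signal corresponded to 9999939 and 9999292 reads. The RARα data are a list of 143280 peaks with scores from 5 to 382 and a median of 12. The list does not give its depth, and the study reports more uniquely mapped reads for RARα than for RXRα. A peak with a score above 20 is called a filtered peak. The list does not define the score.

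An RXRα region is a run of 32 bp bins with at least 20 times the input signal. Input is taken as the larger of the bin's own value and the mean of 0.603. The ratio of a bin with 0 input reads therefore rests on this mean, and so does its rank. A RARα peak is co-localized when it overlaps an RXRα region by at least 25% of the narrower interval, and only filtered peaks are counted as co-localized unless a lower score is given. Whole liver holds several cell types, so binding in fewer cells and weaker binding per cell cannot be told apart. Co-localized peaks were present at 6 of 6 hepatocyte marker genes, and at 0 of 4 markers each of stellate cells, Kupffer cells, endothelial cells and cholangiocytes and 0 of 4 brain genes, compared to 23.5% of all protein-coding genes. The receptors were each present without co-localization at 3 of 4 endothelial markers and at 0 or 1 of 4 genes in each of the other non-hepatocyte lists. With 4 genes a list, these counts do not set the cell types apart.

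RARα and RXRα are nuclear receptors that bind DNA as a heterodimer. RXRα is also the partner of PPARα, FXR, LXR and other nuclear receptors, so an RXRα region does not name the partner. Many of these dimers recognise a pair of AGGTCA-like core motifs in the same orientation, called a direct repeat (DR) and numbered by the bases between the cores. Only direct repeats were searched for here, so pairs of cores in opposite orientation were not counted. In hepatocytes the enzymes described here clear acetaldehyde and fatty aldehydes, complete the breakdown of several amino acids, serve carnitine synthesis, and oxidize a folate-bound one-carbon unit.

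The genes with the 4 highest RXRα ratios within 10 kb of the start were Aldh1l1, Aldh4a1, Aldh3a2 and Aldh2. The site with that ratio lay over 1 kb from the annotated start at each of them, and its sequence is shown for that reason, with the site of the highest ratio anywhere in the family, which is farther inside Aldh1l1. Other Aldh1l1 regions, with ratios of 173, 101 and 97.9, are not printed. The next highest gene was Aldh8a1, with a ratio of 92.9 at 71 bp from its start. Its counting interval (70.2 to 121) overlapped that of Aldh2 (73.1 to 124). By RXRα reads in 1 bin, Aldh5a1 with 106 was above Aldh2 with 100 and Aldh3a2 with 98. Each run is 121 bp of the NCBI37/mm9 genome, read on the plus strand around the bin with the highest RXRα to input ratio. Capitals mark the cores of a direct repeat with at most 2 mismatches to a pair of AGGTCA, which reads TGACCT where the repeat is on the minus strand, and a run without capitals holds none.
Aldh1l1, chr6:90494581-90494701, ratio 257: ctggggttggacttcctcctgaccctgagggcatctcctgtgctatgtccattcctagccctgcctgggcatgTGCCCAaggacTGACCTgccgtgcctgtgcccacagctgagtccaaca
Aldh1l1, chr6:90442101-90442221, ratio 249: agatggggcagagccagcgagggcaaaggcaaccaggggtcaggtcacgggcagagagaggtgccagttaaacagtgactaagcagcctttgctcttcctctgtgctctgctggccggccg
Aldh4a1, chr4:139180213-139180333, ratio 132: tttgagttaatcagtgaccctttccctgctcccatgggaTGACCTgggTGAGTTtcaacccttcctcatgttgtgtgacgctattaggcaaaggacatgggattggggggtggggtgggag
Aldh3a2, chr11:61087573-61087693, ratio 98: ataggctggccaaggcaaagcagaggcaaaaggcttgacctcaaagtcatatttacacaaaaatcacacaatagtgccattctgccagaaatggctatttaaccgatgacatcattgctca
Aldh2, chr5:122041877-122041997, ratio 96.2: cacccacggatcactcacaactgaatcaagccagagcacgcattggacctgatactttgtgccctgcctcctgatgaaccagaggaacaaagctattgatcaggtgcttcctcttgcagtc

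A narrower search asked for direct repeats without mismatch, on both strands, with 1 to 5 bases between the cores and each core being AGGTCA itself, the variant AGTTCA, the variant GGGTCA or the variant GGTTCA. The windows reached 100 bp to either side of the RARα summit or of the highest RXRα bin. All matches are shown, written 5′ to 3′ on the strand of the repeat with the cores in capitals.
Aldh2, DR4 in the first exon, chr5:122043513-122043528, minus strand: AGTTCAgttcGGGTCA
Aldh2, DR1 in an intron, chr5:122036865-122036877, minus strand: GGGTCAgGGGTCA
Aldh1l1, DR1, chr6:90452865-90452877, plus strand: AGTTCAaAGGTCA
Aldh1l1, DR1, chr6:90496399-90496411, minus strand: AGGTCAgGGGTCA
Aldh5a1, DR1 in an intron, chr13:25016122-25016134, plus strand: AGGTCAaAGTTCA

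The Aldh2 DR4 lay under the highest RARα score of the 8 RARα-bound genes and was the only match at the 23 filtered RARα summits of the family, compared to 0.509% of all 18093 filtered RARα summits within 10 kb of a gene start. Around the 37 RXRα regions within 10 kb of the members, 2 held a match, which was 5.41% compared to 2.60% of all 15094 such regions. When gene bodies were included, 5 of 69 RXRα regions held a match, and 4 of these 5 were DR1. DR1 was also the most frequent spacing at all 15094 regions, with 1.23%, and no share over all genes was computed with gene bodies included. None of the 10 promoters, taken as 250 bp before to 50 bp after the gene start, held one, compared to 0.438% of all promoters. A match is a description of these letters, and a window without one says nothing about receptor binding.

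RXRα regions were present within 10 kb of the gene start at every one of the 10 genes, compared to 39.8% of all protein-coding genes. Filtered RARα peaks were present at 8 of 10, compared to 52.2%, and co-localized peaks also at 8 of 10, compared to 23.5%. The exceptions for RARα were Aldh1b1 and Aldh1l1, which had RARα peaks of score 20 or lower. Without a score threshold all 10 had a RARα peak, against a background of 67.3%. When peaks in the gene body were added, Aldh1l1 joined, which gave 9 of 10 for RARα (57.9% of all genes), 10 of 10 for RXRα (47.9%) and 9 of 10 for co-localization (27.2%). Close to the start the counts were lower. Within 1 kb, filtered RARα peaks were found at 7 of 10 genes (40.9% of all genes), RXRα regions at 6 (21.6%) and co-localized peaks at 5 (15.8%). The genes with RXRα only farther than 1 kb from the start were Aldh1b1, Aldh3a2, Aldh4a1 and Aldh5a1. The distribution of the signal is seen in the plot of RXRα and input by distance from the start.

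**Figure D1:**
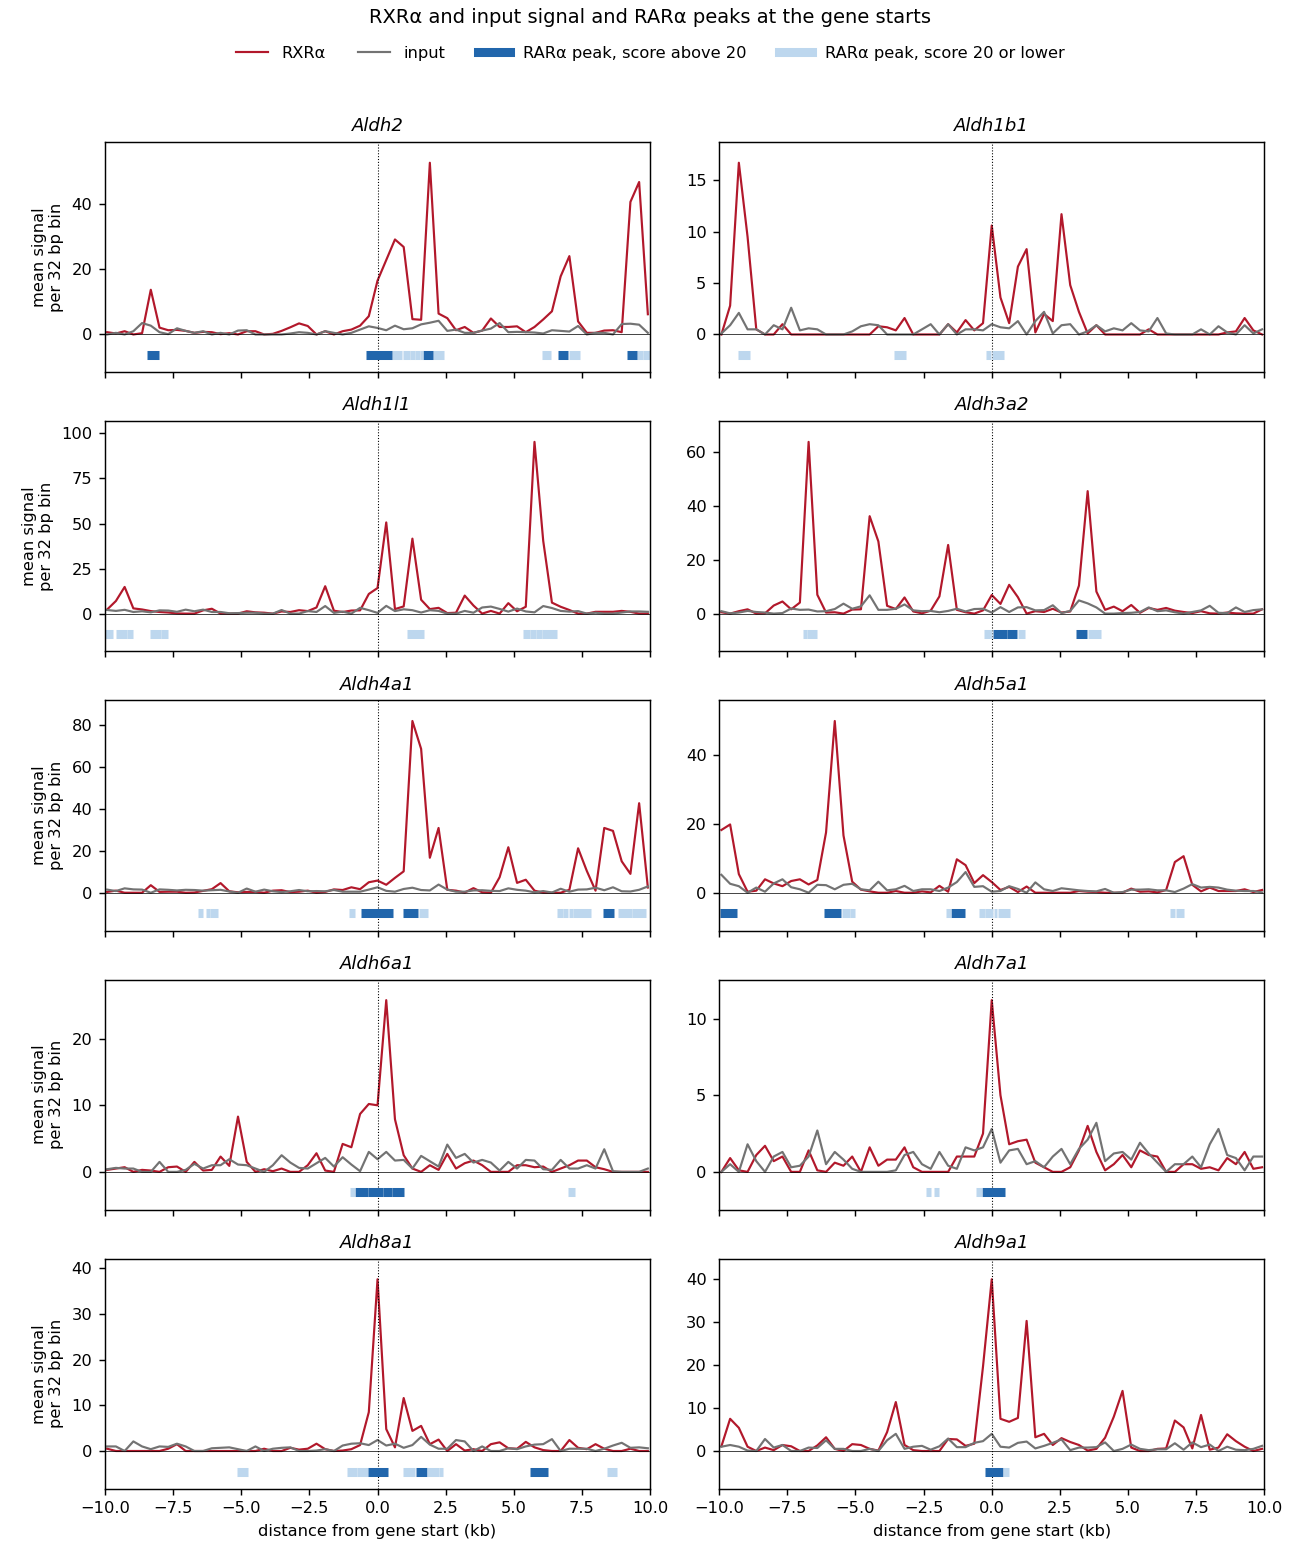
RXRα (red) and input (grey) signal, as the mean per 32 bp bin in steps of 320 bp, against the distance from the gene start in kb at each of the 10 genes. Each panel has its own vertical scale, negative distances are upstream, and bars under the curves are the RARα peaks (dark, score above 20). RXRα rose above input at the start of Aldh8a1 and Aldh9a1, but peaked upstream at Aldh3a2 and Aldh5a1 and inside the gene at Aldh4a1 and Aldh1l1.

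Aldh2 (ENSMUSG00000029455.8, chr5:122016036-122043833, minus strand) encodes the mitochondrial enzyme that oxidizes the acetaldehyde formed from ethanol. Within 1 kb of its start 204 RXRα and 23 input reads were counted, which gave a ratio of 8.87 (exact 95% interval 5.75 to 14.3, counting error only), which was the highest of the family in this window. Within 500 bp its ratio of 7.67 was below those of Aldh1l1 (10.9), Aldh8a1 (9.36), Aldh1b1 (7.75) and Aldh9a1, and within 2 kb its ratio of 7.90 was below that of Aldh4a1 (13.2). Its RARα score of 123 was also the highest within 10 kb of a member's start, with the summit at 278 bp in the first exon. That peak lay over an RXRα region with a ratio of 76.3. The highest RXRα ratio, 96.2, was at 1881 bp in an intron, where the RARα score was 21. Its highest bin held 58 RXRα and 0 input reads. The most RXRα reads in 1 bin, 100 with 4 input reads, were at 9512 bp, at the edge of a RARα peak with a score of 47. Within 10 kb of the start 6 RXRα regions and 5 filtered RARα peaks were found at Aldh2, and RXRα overlapped 4 of the latter. The exception among these 5 was a distal one at -8312 bp with a score of 101, which held 28 RXRα and 6 input reads, an enrichment of 4.92, and no RXRα region.

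Aldh1b1 (ENSMUSG00000035561.5, chr4:45811894-45817476, plus strand) encodes a second mitochondrial enzyme that acts on acetaldehyde. Its profile differed from that of Aldh2, as the gene had no filtered RARα peak and 2 RXRα regions. The stronger region, with 31 RXRα reads and 0 input reads in its highest bin and a ratio of 51.4, was at -9094 bp, and a RARα peak with a score of 11 lay over it. The other had a ratio of 29.9 at 2634 bp in an intron, with no RARα peak of any score. At the start itself 44 RXRα and 9 input reads gave a ratio of 4.89 (2.36 to 11.4), but no bin reached the threshold for a region.

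Aldh3a2 (ENSMUSG00000010025.11, chr11:61036919-61080966, minus strand) encodes the membrane-bound enzyme that oxidizes long-chain fatty aldehydes. RARα and RXRα were strongest at different places. The highest RARα score was 60, at 341 bp, where the RXRα enrichment was 2.66 with 13 RXRα and 5 input reads. RXRα ratios of 43.1, 66.4 and 98 were found upstream at -1626, -4218 and -6634 bp, and RARα peaks touched only the farthest of these 3 regions, with scores of 17 and 14. The single filtered peak on an RXRα region within 10 kb was intronic at 3371 bp, with a RARα score of 25 on an RXRα region with a ratio of 29.0. The reads within 1 kb of the start were 58 for RXRα and 17 for input, a ratio of 3.41 (1.96 to 6.25). The 2 other filtered RARα peaks of the gene, with scores of 42 and 23, lay in introns whose nearest gene start was that of Aldh3a1.

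Of the genes of amino acid breakdown, Aldh4a1 (ENSMUSG00000028737.9, chr4:139178781-139205605, plus strand) had the most RXRα. It encodes the mitochondrial enzyme that converts the proline breakdown product pyrroline-5-carboxylate to glutamate. An intronic region at 1331 bp reached a ratio of 132, with 132 RXRα reads and 1 input read in that bin, and the RARα peak co-localized with it had an RXRα enrichment of 37.3 and a score of 35. The highest RARα score, 66, was at 294 bp over the start, where 37 RXRα and 10 input reads gave an enrichment of 3.68 and no RXRα region was present. A second co-localized peak at 8479 bp had a RARα score of 25 and an RXRα region with a ratio of 81.0. Of its 6 RXRα regions all lay inside the gene. Over the gene body 908 RXRα and 148 input reads gave a ratio of 6.13 (5.15 to 7.35), above the other 9 genes. The window around the start misses the intronic region, so the ratio was 3.81 (2.17 to 7.08) within 1 kb and 13.2 within 2 kb.

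Aldh5a1 (ENSMUSG00000035936.6, chr13:24999448-25029530, minus strand) encodes succinic semialdehyde dehydrogenase, which completes the breakdown of the transmitter GABA. It had the lowest ratio at the start, with 35 RXRα and 24 input reads, or 1.46 (0.843 to 2.56), an interval that includes equality with input. Within 500 bp the ratio was 3.33 (1.29 to 10.1), which no longer included equality and was above the ratios of Aldh3a2 (2.40) and Aldh4a1 (3.00). The RXRα region with the highest ratio, 86.3 at -5782 bp, lay 291 bp inside the neighbouring gene Gpld1, and the co-localized RARα peak there had a score of 34. The other filtered peak on an RXRα region, with a score of 22 at -9745 bp, was also nearer to the start of Gpld1. The filtered peak nearest to the start of Aldh5a1 had the highest RARα score, 42 at -1285 bp, and an RXRα enrichment of 3.25 without a region. An intronic RXRα region at 6858 bp, with a ratio of 36.5, lay under a RARα peak with a score of 15, whose nearest gene was Aldh5a1 itself.

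Aldh6a1 (ENSMUSG00000021238.9, chr12:85771673-85791900, minus strand) encodes methylmalonate semialdehyde dehydrogenase of valine and thymine breakdown. The start of Lin52, which is transcribed in the opposite direction, lies at -558 bp from that of Aldh6a1. Between 765 and -575 bp there were 4 neighbouring RARα peaks with scores of 21, 29, 100 and 46. The peak with the score of 100, at -5 bp, held 30 RXRα and 9 input reads, an enrichment of 3.31, and was not co-localized. The co-localized peak was the one at -575 bp, which overlapped an RXRα region with a ratio of 28.2 and lay nearer to Lin52. The most RXRα reads in 1 bin, 48 with 4 input reads, were at 427 bp inside Aldh6a1, without a region. The RARα peak there, with a score of 29 at 385 bp, held 54 RXRα and 6 input reads, an enrichment of 9.23. Within 1 kb of the Aldh6a1 start 134 RXRα and 21 input reads gave 6.38 (4.01 to 10.6). Over the gene body RXRα was at the level of input, with 144 and 141 reads and a ratio of 1.02 (0.804 to 1.30).

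Aldh8a1 (ENSMUSG00000037542.7, chr10:21097097-21116391, plus strand) encodes an enzyme of the kynurenine pathway of tryptophan breakdown, and was first described for its activity on a retinal isomer. RARα and RXRα met at its start. The RARα peak at 43 bp (score 53) had 12.5 times as much RXRα as input, and the RXRα region at 71 bp had 56 RXRα reads and 0 input reads in its highest bin, a ratio of 92.9. Both values were the highest of the gene. The other filtered RARα peaks, with scores of 24 at 1548 bp and 37 at 5848 bp, had enrichments of 1.66 and 0.336 and no region. The ratio within 1 kb was 6.05 (3.70 to 10.4), from 115 RXRα and 19 input reads. Its start was the poorest in CpG of the family, with an observed to expected ratio of 0.206 within 500 bp, compared to a median of 0.549 over all genes.

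Aldh9a1 (ENSMUSG00000026687.9, chr1:169280122-169298661, plus strand) encodes the enzyme that oxidizes trimethylaminobutyraldehyde on the way to carnitine. Its 1 filtered RARα peak, with a score of 53 at 263 bp, lay on an RXRα region with a ratio of 38.2. Of its 4 RXRα regions this was the only one under a RARα peak of any score, and the highest ratio, 45.0, was at 1254 bp in an intron. The most RXRα reads in 1 bin, 72 with 8 input reads, were at -169 bp under the filtered RARα peak. Within 1 kb of the start 166 RXRα and 23 input reads gave a ratio of 7.22 (4.65 to 11.7), below only that of Aldh2.

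Aldh1l1 (ENSMUSG00000030088.9, chr6:90436421-90550197, plus strand) encodes formyltetrahydrofolate dehydrogenase, which releases a folate-bound formyl group as carbon dioxide. Within 10 kb of the annotated start it had the highest RXRα ratio of the family, 249 at 5819 bp. Its highest bin held 150 RXRα reads and 0 input reads, so the ratio rests on the mean input. At Aldh4a1 a bin with 157 RXRα reads and 3 input reads had a lower ratio. Of all protein-coding genes, 99.9% had a lower highest ratio than Aldh1l1. Of the RARα peaks that touched the region at 5819 bp none had a score above 17. The peak over its highest bin had a score of 12, with 148 RXRα reads and 0 input reads. Reads within 1 kb of the start were 166 for RXRα and 24 for input, a ratio of 6.92 (4.49 to 11.1). None of its 6 RXRα regions within 10 kb was under a filtered RARα peak. However, this start belongs to a transcript that is not protein-coding in the annotation, and the first protein-coding transcript starts 64362 bp downstream, at 90500783.

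At the protein-coding start of Aldh1l1 both receptors were present. A RARα peak from 90500221 to 90501131 had its summit 52 bp downstream of that start, a score of 128, which is the highest in the family, and 168 RXRα and 10 input reads, an enrichment of 16.4. The RXRα region beneath it had a ratio of 84.6. Within 10 kb of that start there were 10 RXRα regions, with ratios up to 257 at -6047 bp, and 5 of the 8 filtered RARα peaks were co-localized. Another site at 67504 bp from the annotated gene start, in an intron, had a RARα score of 45 on an RXRα region with a ratio of 173. Across the gene body and 10 kb on either side of the annotated start, there were 19 filtered RARα peaks, 9 of them co-localized, and 28 RXRα regions. RARα peaks of any score were dense along the transcribed part and numbered 133 over the gene, covering 38.7% of its length, compared to a median of 1.84% and a 95th percentile of 32.2% over all genes. The positions are seen in the plot along Aldh1l1.

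**Figure D2:**
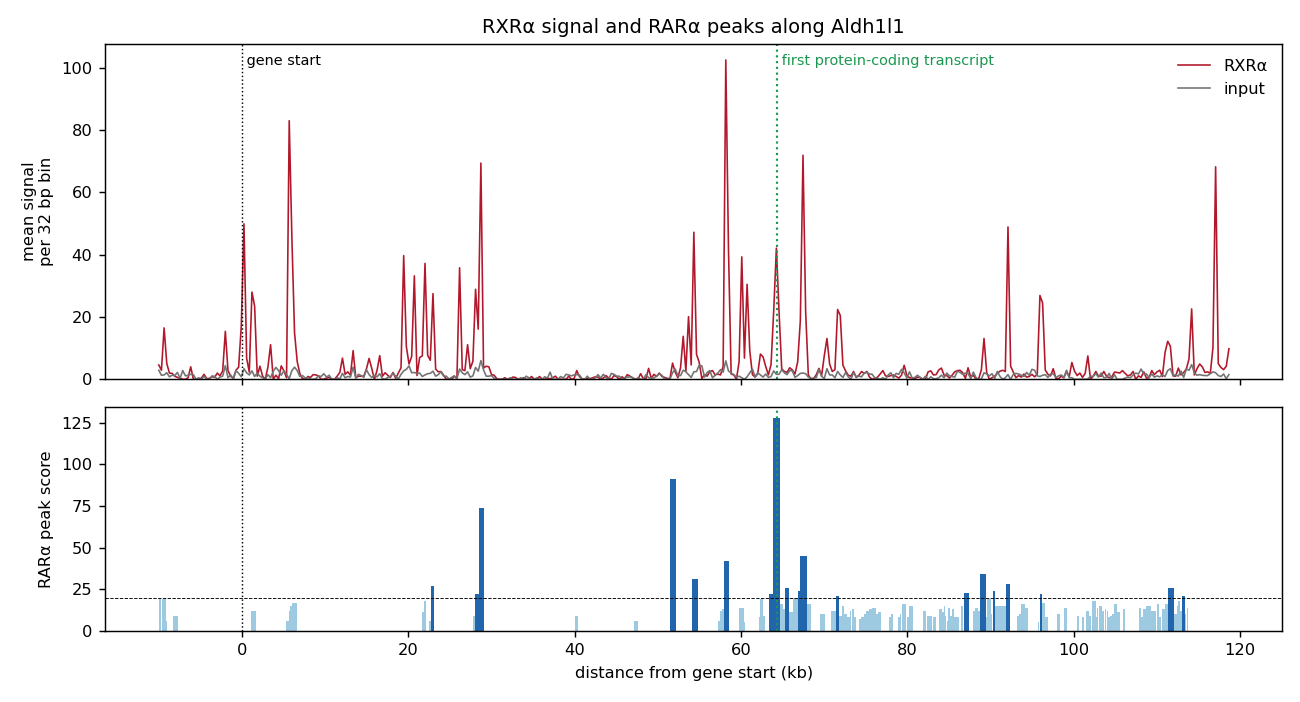
RXRα (red) and input (grey) signal along Aldh1l1 as the mean per 32 bp bin in steps of 320 bp (top), and the score of each RARα peak over its width (bottom, dark above 20, dashed line at 20), against the distance from the annotated gene start in kb. Vertical lines mark the annotated start and the first protein-coding transcript, where the RARα score of 128 lies. The RXRα maximum near 5.8 kb has RARα peaks of at most 17.

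Aldh7a1 (ENSMUSG00000053644.6, minus strand) encodes the enzyme of lysine breakdown that oxidizes aminoadipic semialdehyde. Its highest RXRα ratio within 10 kb was the lowest of the 10 genes. Its single region there was 1 bin that held 13 RXRα and 0 input reads and so had a ratio of 21.6, just above the threshold, and the interval for 13 reads (6.92 to 22.2) corresponds to ratios from 11.5 to 36.9. The RARα peak over it had a score of 67 at -100 bp, and RXRα across the peak was enriched 4.07 times. Reads within 1 kb were 46 for RXRα and 20 for input, a ratio of 2.30 (1.33 to 4.10). This start was the richest in CpG of the family, with an observed to expected ratio of 0.964. Further into the gene, RARα peaks with scores of 46 at 10330 bp and 49 at 10750 bp lay next to the start of Phax. Other protein-coding transcripts of Aldh7a1 itself start at 10623 to 10754 bp, so these peaks cannot be assigned to Phax alone. The peak with the score of 46 was co-localized with a region with a ratio of 21.6.

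The ratios of RXRα to input at the starts ran from 1.46 at Aldh5a1 to 8.87 at Aldh2, with a median of 5.47, compared to 1.36 over all protein-coding genes. For the value over all genes, input below its mean of 7.54 reads was raised to that mean. This lowers the ratio of genes with little input at the start. In the order of the ratios each gene had an interval that overlapped that of the next, so neighbours in this order cannot be told apart by their counts. The intervals of Aldh2, Aldh9a1 and Aldh1l1 lay above those of Aldh7a1 and Aldh5a1. The input itself was above its mean of 7.54 reads per window of that size at all 10 starts, with 9 reads at the lowest, and the part of this in the results was not tested.

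**Figure D3:**
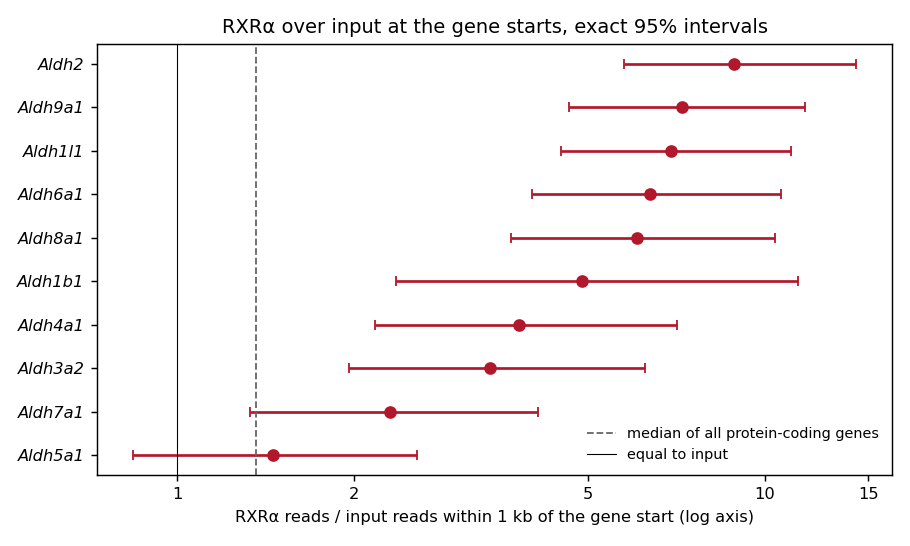
Ratio of RXRα to input reads within 1 kb of the gene start for each of the 10 genes on a log axis, with exact 95% intervals that cover counting error only. The dashed line is the median of all protein-coding genes (1.36) and the solid line is equality with input, which only the interval of Aldh5a1 includes. For the dashed line, input below its mean was raised to that mean.

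Peak by peak, RARα score and RXRα signal did not rank the sites alike. Of the 23 filtered RARα peaks within 10 kb, 13 were co-localized, which was 56.5% compared to 33.1% of all filtered peaks within 10 kb of a gene start. Their median score of 37.0 was near the median of 36.0 over all, while their median RXRα enrichment was 7.70 compared to 4.61. The enrichment ran from 0.336 at Aldh8a1 to 37.3 at Aldh4a1. The highest RARα peak of a gene was co-localized at 4 of 8 genes, compared to 50.3% of all genes with both receptors, and those 4 were Aldh2, Aldh7a1, Aldh8a1 and Aldh9a1. It was on the region with the highest RXRα ratio at 2 of 8 genes, Aldh7a1 and Aldh8a1, compared to 28.8%. RXRα reads and RXRα ratio were highest at different places at Aldh2, Aldh6a1 and Aldh9a1, so this count holds for the ratio. Seen from RXRα, 13 of the 37 regions of the family lay under a filtered RARα peak (35.1% compared to 39.4% of all), and 26 of 37 lay under a RARα peak of any score (70.3% compared to 65.6%). Many RARα peaks abut, and when those were merged 19 filtered peaks remained of the 23.

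**Figure D4:**
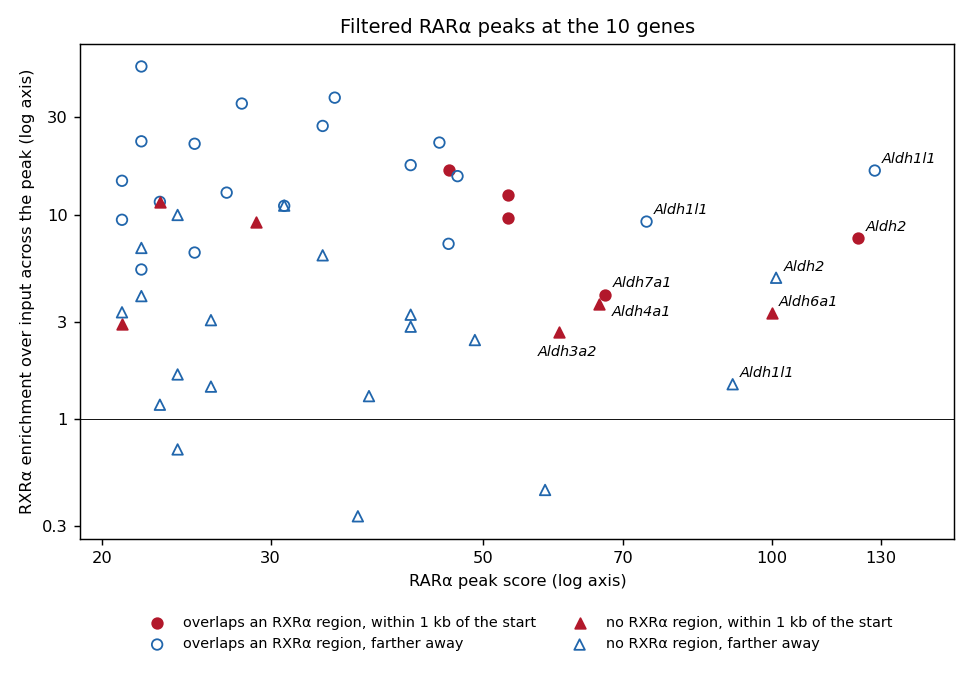
RXRα enrichment over input across each filtered RARα peak of the 10 genes, within 10 kb of the start or in the gene body, against the RARα score, both on log axes. Circles overlap an RXRα region and triangles do not, filled symbols lie within 1 kb of the annotated gene start, and the 9 highest scores are labelled. The peaks with the highest enrichments have scores below 50, and 5 of the 9 labelled peaks have no RXRα region.

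For comparison, 10 other aldehyde dehydrogenases, which include the retinal-oxidizing Aldh1a genes, were counted. Filtered RARα peaks were found at 7 of them (52.2% of all genes), RXRα regions at 6 (39.8%) and co-localized peaks at 3 (23.5%). The highest RARα score in that group was 116 at Aldh16a1 and the highest RXRα ratio was 56.4 at Aldh1a7. The median RXRα to input ratio at the starts of these other aldehyde dehydrogenases was 1.88, with input below its mean of 7.54 reads raised to that mean. A list of 22 enzymes of neighbouring steps held alcohol dehydrogenases, peroxisomal and proline enzymes, carnitine synthesis and others. RARα was found at 21 of them, RXRα at all 22 and co-localization at 20, against the same shares of all genes. The exceptions were Adh1, without a filtered RARα peak, and Adh4, with 2 filtered RARα peaks that were not co-localized. The highest values were a RARα score of 183 at Cat, which encodes catalase, and an RXRα ratio of 219 at Hibch of valine breakdown. The median ratio at the starts of these 22 genes, taken in the same way, was 5.10, compared to 5.47 for the 10 genes described here. The lists were not matched on expression in liver.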

How the data were processed

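The authors deposited coverage signal on a linear scale, in 32 bp bins, from 1 RXRα and 1 input library. For RARα, the authors deposited 1 list of peaks with a score and a false discovery rate in percent, which was not used as a filter. Per the labels, CASAVA 1.4, Bowtie and MACS were used. The file headers name mm9, while the methods of the study also name mm10, and 0 peaks reached beyond a chromosome of mm9. Genes were those of GENCODE M1. The signal sums were multiples of 5, the bins that 1 read covers, which gave 9999939 and 9999292 reads in the deposited signal. Both tracks were brought to an equal mean (0.603 per bin). RXRα bins of at least 20 times the larger of local and mean input were joined within 200 bp. The enrichment at a RARα peak is its mean RXRα signal relative to the larger of its mean input and the genome mean. Summits and region midpoints were measured from the gene start. Intervals are exact (Clopper-Pearson for ratios, Poisson for 1 bin) and cover counting error only. The score, distance, 20-fold and overlap settings follow the methods of the study. The study called its peaks with MACS, so the RXRα regions here, which are joined bins, are not its RXRα peaks. Samples were grouped by their labels, and no test was possible with 1 library per antibody.

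All 10 genes of the family are named. From the comparison lists the highest values and exceptions are named. A further gene is named where its start is nearer to a peak. The genes and lists were chosen with earlier results of these data known. The search for repeats with mismatches and the merging of abutting peaks were added after the data were seen. Steps were tested on simulated data. Computations used Python 3.11.15, numpy 2.4.6, pandas 2.3.3, scipy 1.17.1 and matplotlib 3.10.9.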

Additional observations from a re-analysis of the deposited data

How the results depend on the processing

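No paired analysis was possible because each antibody has 1 library. Of 66 alternative values, 56 lay within 1.5 times the reported count or inside the counting interval of the reported ratio, and 10 did not. Counts of 8 or 10 among 10 genes cannot rise by 1.5 times. Settings that loosen the calls were therefore bound to be among the 56, and only settings that tighten them could move these counts. The alternative without scaling to an equal mean could hardly change a value, because the scaling factor was 0.999935. Its values are among the 56. The number of genes with an RXRα region was 6 within 1 kb of the start (21.6% of all genes). Co-localized genes numbered 5 within 1 kb of the start (15.8% of all genes). They numbered 5 with RXRα regions at 30 times input (14.9%) and 4 with RARα scores above 50 (10.9%). At 30 times input Aldh3a2, Aldh6a1 and Aldh7a1 lost co-localization. Above a score of 50 it was lost by Aldh3a2, Aldh4a1, Aldh5a1 and Aldh6a1. With each peak given to its nearest gene only, Aldh5a1 and Aldh6a1 lost it, which left 6 (18.8% of all genes). RARα summits with an exact repeat numbered 2 in windows of 200 bp to either side and 0 with AGGTCA and GGGTCA alone. With at most 2 mismatches to a pair of AGGTCA, an alternative added after seeing the data, 3 of 23 summits had a repeat, compared to 10.2% of all filtered summits. The ratio at the start moved to 13.2 for Aldh4a1 and 3.46 for Aldh6a1 within 2 kb, and to 3.33 (1.29 to 10.1) for Aldh5a1 within 500 bp, where the interval no longer included 1. Within 500 bp the ratio also rose by over 1.5 times, inside the counting interval, for Aldh1l1 (10.9), Aldh1b1 (7.75), Aldh7a1 (3.80) and Aldh8a1 (9.36), and Aldh1l1 took the highest rank from Aldh2. The causes were not tested. Single RXRα bins hold few reads, which limits regions near the threshold.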

Other observations

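With at most 2 mismatches to a pair of AGGTCA allowed, direct repeats of any spacing were present at 12 of the 37 RXRα regions of the family within 10 kb of a start (32.4%, compared to 25.9% of all such regions) and at 3 of the 10 promoters (compared to 11.7% of all promoters). With gene bodies included, 24 of 69 RXRα regions held one. DR1 was the most frequent spacing at these 69 regions, with 17.4%, followed by DR4. Windows of different regions of one gene are not independent.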
